A study of Homo sapiens with 6 samples.

Results

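The Krüppel-like factor (KLF) genes were followed through the conversion of B cells into macrophages and upon loss of the architectural protein CTCF. The set was a list of 10 gene symbols, *KLF2*, *KLF3*, *KLF4*, *KLF6*, *KLF7*, *KLF9*, *KLF10*, *KLF11*, *KLF12* and *KLF13*, out of 30017 genes in the count table. Of these members, 9 were among the 14758 genes that passed the filter on low counts, and *KLF7* did not. RNA was sequenced from BLaER1 cells, a human B cell leukemia line that carries an estradiol-inducible C/EBPα and becomes macrophage-like when estradiol, IL-3 and CSF-1 are added. All 6 libraries came from 1 subclone in which CTCF is fused to an auxin-inducible degron (the CTCF-AID subclone), so that auxin (IAA) leads to degradation of the CTCF protein. There were 2 libraries in each of 3 groups: cells at 0 h without the conversion factors, cells after 96 h of conversion without IAA (96 h control), and cells after 96 h of conversion with IAA present from the start (96 h CTCF-depleted). No IAA-treated line without the degron was analysed here, so IAA itself and the loss of CTCF cannot be told apart.

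KLF proteins are zinc finger transcription factors that share a conserved DNA-binding domain at the carboxy terminus, with which they bind GC-rich boxes and CACCC elements, and they differ in the amino-terminal part that recruits cofactors. KLF2, KLF4, KLF6 and KLF7 act mainly as activators through acetyltransferases. KLF3 and KLF12 carry a motif for the CtBP corepressor, and KLF9, KLF10, KLF11 and KLF13 bind the SIN3 corepressor. In blood cells KLF2 is known for keeping lymphocytes quiescent and for their trafficking, and KLF4 for monocyte differentiation.

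In the GENCODE annotation of hg38 the 10 genes lie on 8 chromosomes, with *KLF4* and *KLF9* far apart on chromosome 9 and *KLF7* and *KLF11* far apart on chromosome 2. *KLF6* spans chr10:3775996-3785281 on the minus strand, *KLF3* chr4:38664197-38701517 on the plus strand, and *KLF2* chr19:16324826-16328685 on the plus strand. *KLF4* (chr9:107484852-107490482, minus strand) and *KLF6* were among the genes whose promoters the study went on to target.

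Promoters were taken from RefSeq (GRCh38.p14) for 8 of the 10 members, without *KLF3* and *KLF10*. The 250 bases upstream of the RefSeq start site are shown for the 3 activators that the later results turn on, *KLF2*, *KLF4* and *KLF6*. RefSeq and GENCODE starts can differ: the *KLF4* window lies inside the GENCODE span of its gene, and the *KLF6* window overlaps that of its gene. Each is printed 5′ to 3′ on the strand of its gene, with capitals for the letters GGGCGG (a GC box of the type that KLF and SP factors bind), a MEF2-type box (CTA and TAG with 4 bases between them) and TATAA, each searched on both strands.
KLF2, chr19:16324576-16324825, plus strand: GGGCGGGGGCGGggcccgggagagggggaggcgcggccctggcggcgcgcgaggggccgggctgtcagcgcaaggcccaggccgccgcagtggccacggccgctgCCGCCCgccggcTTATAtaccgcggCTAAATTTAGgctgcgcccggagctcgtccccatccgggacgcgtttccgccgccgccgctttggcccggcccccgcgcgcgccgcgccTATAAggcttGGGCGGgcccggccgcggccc
KLF4, chr9:107489770-107490019, minus strand: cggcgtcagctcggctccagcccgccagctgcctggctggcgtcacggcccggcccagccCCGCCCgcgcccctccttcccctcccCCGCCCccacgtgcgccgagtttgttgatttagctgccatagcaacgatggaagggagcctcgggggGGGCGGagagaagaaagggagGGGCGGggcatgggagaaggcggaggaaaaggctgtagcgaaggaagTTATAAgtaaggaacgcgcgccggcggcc
KLF6, chr10:3785210-3785459, minus strand: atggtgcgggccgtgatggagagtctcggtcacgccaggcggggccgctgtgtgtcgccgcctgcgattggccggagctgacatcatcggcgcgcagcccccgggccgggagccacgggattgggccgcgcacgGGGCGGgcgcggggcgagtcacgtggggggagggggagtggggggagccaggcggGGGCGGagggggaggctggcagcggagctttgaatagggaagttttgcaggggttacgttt

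GGGCGG occurred 4 times in the *KLF2* window, 4 times in that of *KLF4* and 2 times in that of *KLF6*, and 42.5% of 34943 promoters of the same length held it. The MEF2-type box was found 1 time, in the *KLF2* window, and 2.36% of promoters held it. TATAA was found in the *KLF2* and *KLF4* windows but its letters are not in that of *KLF6*, and 19.0% of promoters held it. The letters CACCC, held by 54.7% of promoters, are in none of the 3 windows. AGGNGGC (a CTCF core, N for any base, not set in capitals) was found 1 time, in the *KLF6* window, and 31.5% of promoters held it. TGACGTCA (a cAMP response element) and TTGCGCAA (a C/EBP palindrome) are in none of the 3, and 1.63% and 0.13% of promoters held them. The GC content of the windows was 80.0% for *KLF2*, 69.2% for *KLF4* and 72.4% for *KLF6*, against a median of 58.0% over all promoters. These are matches of letters and no evidence of binding.

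The libraries held between 9273470 and 12718780 counts. The conversion was visible in the markers. All 9 B cell markers tested fell between 0 h and the 96 h control, from a summed level of 3280–3306 to 399–403 CPM (counts-per-million with TMM factors). All 9 macrophage markers rose, from 35.0–39.0 to 5060–5309 CPM, and *FCGR1A* and *CD163* were at 0 in both 0 h libraries. Over all genes tested 25.4% were called higher and 22.9% lower. *ITGAM*, *CD14*, *LYZ*, *FCGR1A*, *CD163*, *TYROBP* and *FCER1G* passed the filter on low counts only through the 96 h libraries. Once tested, these genes could only come out higher. Upon CTCF depletion the summed levels were 343–359 CPM for the B cell list and 4949–4984 CPM for the macrophage list, with 3 B cell markers lower, 1 macrophage marker higher (*ITGAM*) and the others not called. Over all genes tested 7.03% were called lower and 5.41% higher. Of the 9 B cell markers, 0 had a log2 fold change above 0 upon depletion, with a median of −0.36. The macrophage sum is mostly *LYZ* (4527 CPM in the 96 h control and 4158 CPM in CTCF-depleted cells). Without *LYZ* it was 651–664 and 802–816 CPM, and this rise rests on *ITGAM*, which went from 128 to 285 CPM. *CSF1R* went the other way, from 274 to 222 CPM. Over all 9 macrophage markers, *LYZ* included, 7 log2 fold changes were above 0, with a median of 0.28. Granulocyte markers summed to 0.722–0.900, 94.5–97.1 and 72.9–79.4 CPM in the 3 groups. At 96 h this was mostly *CSF3R* (71.8 CPM in the control and 52.7 CPM in CTCF-depleted cells). T cell markers summed to 0, 3.52–3.53 and 5.07–5.09 CPM, nearly all of it *CD2*, with *CD3D* and *CD3G* at 0 in all 6 libraries. In bulk RNA, fewer cells of a type and less RNA per cell cannot be told apart, and the part of these shifts in the results for the KLF genes was not tested. *CTCF* transcript stood at 177 ± 5.03 CPM in the 96 h control and 190 ± 1.40 CPM in CTCF-depleted cells (mean ± SD, n = 2, log2 fold change 0.10, edgeR adjusted p = 0.119). The degron acts on the protein, so the transcript does not check the depletion. The study checked it by mapping CTCF binding in IAA-treated and control macrophages.

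To see how the KLF family differs between the B cell and the macrophage state, the 96 h control was compared with 0 h. Of the 9 members tested, 7 rose (*KLF2*, *KLF3*, *KLF4*, *KLF6*, *KLF9*, *KLF10* and *KLF13*), 1 fell (*KLF12*) and *KLF11* was not called. A gene was called when its Benjamini-Hochberg adjusted p from the quasi-likelihood test of edgeR was below 0.01 and its absolute log2 fold change above 0.6. Over all genes tested 25.4% were called higher and 22.9% lower, 48.3% in all. *KLF2* and *KLF3* passed the filter on low counts only through the 96 h libraries, so once tested they could only come out higher. The median log2 fold change was 1.40 over the members and 0.02 over all genes. The members did not move by like amounts. *KLF2*, *KLF3* and *KLF4* went from at most 12 reads a library to 574 reads or more, *KLF10* rose 10.4-fold, and *KLF6*, *KLF9* and *KLF13* rose 1.87- to 2.64-fold from levels of 25.1 to 149 CPM at 0 h.

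**Figure D1:**
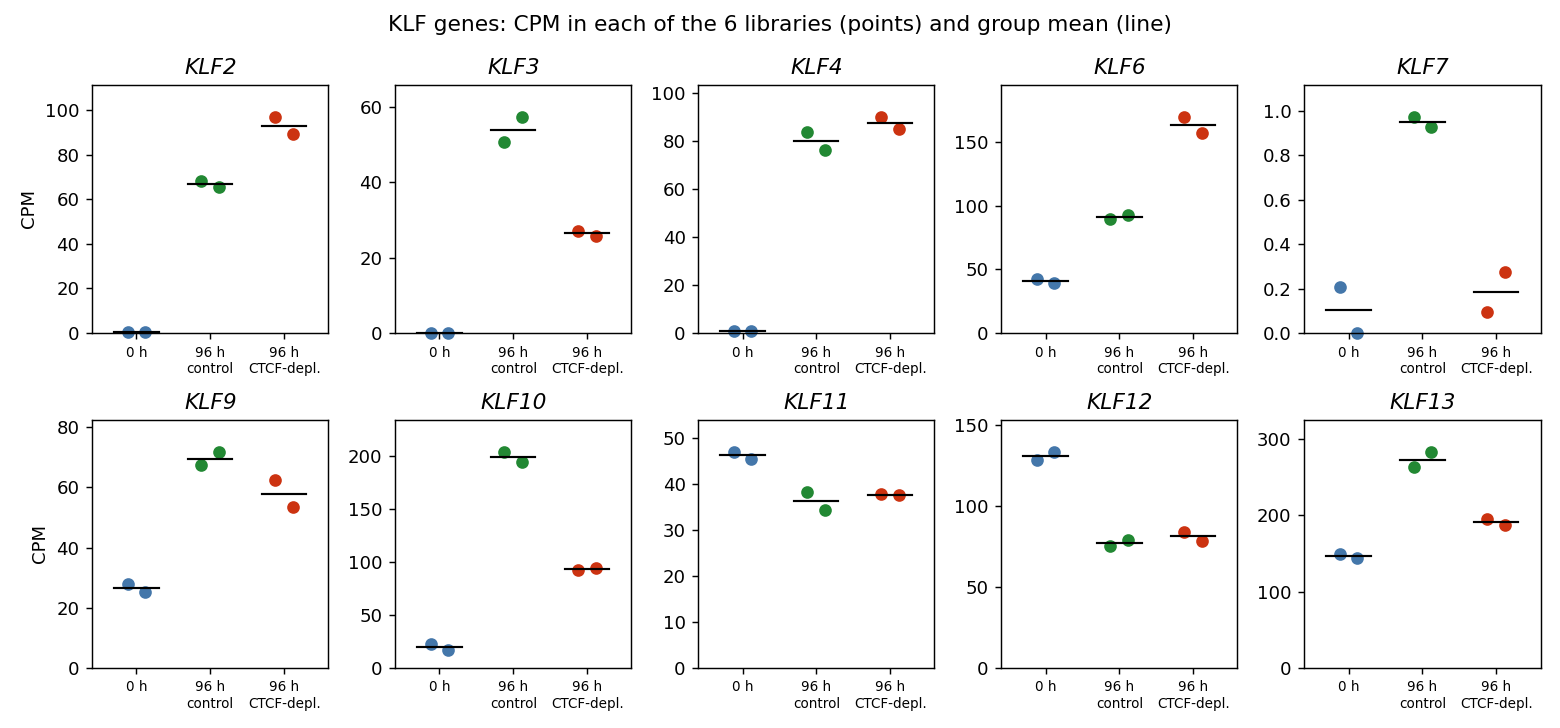
Level of each KLF gene (CPM, linear axis starting at 0, scaled separately in each panel) in the 2 libraries of each group (points), with the group mean (line). KLF2, KLF3 and KLF4 lie near 0 at 0 h, KLF6 is highest in the CTCF-depleted libraries, and KLF3, KLF7, KLF9, KLF10 and KLF13 are highest in the 96 h control.

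Among the activators, *KLF2* was counted 3 and 7 times in the 0 h libraries, 772 and 707 times in the 96 h control libraries, and 1045 and 967 times in the CTCF-depleted libraries. In CPM these were 0.309 and 0.525, 68.1 and 65.5, and 96.8 and 89.1. The 3 groups did not overlap, and both CTCF-depleted libraries lay above both control libraries. *KLF2* rose 154-fold with conversion, with an exact 95% interval of 83.5 to 322 on the ratio of pooled counts, which covers counting error only (fitted log2 fold change 7.23, SE 0.18, edgeR adjusted p = 1.14e-40). Between CTCF-depleted cells and the 96 h control its log2 fold change of 0.48 (SE 0.07, edgeR adjusted p = 3.42e-07) passed the threshold on p but not the one on fold change.

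*KLF4* had 10 and 12 counts at 0 h. Its level was 1.03 and 0.900 CPM at 0 h, 83.5 and 76.1 CPM in the 96 h control, and 89.7 and 84.7 CPM in CTCF-depleted cells. It therefore rose with conversion much as *KLF2* did, by 83.6-fold on pooled counts (95% counting interval 55.1 to 134). Upon CTCF depletion the lower of the 2 libraries lay just above the higher control library, and the log2 fold change of 0.13 (SE 0.07, edgeR adjusted p = 0.170) did not pass either threshold. This does not show that the level was the same.

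*KLF6*, an activator induced by injury and inflammatory signals, was the member with the largest rise upon CTCF depletion. Its level was 42.0 and 39.5 CPM at 0 h, 89.3 and 92.4 CPM in the 96 h control, and 169 and 157 CPM in CTCF-depleted cells. Each step separated the groups by far more than the replicates of a group differed. The rise with conversion was 2.24-fold (log2 fold change 1.16, SE 0.07, edgeR adjusted p = 2.05e-21), and CTCF-depleted cells stood a further 1.79-fold above the 96 h control (log2 fold change 0.84, SE 0.06, edgeR adjusted p = 6.90e-17). From 0 h to CTCF-depleted cells *KLF6* thus differed 4.01-fold. Leaving out any 1 library of the 2 groups kept the second log2 fold change between 0.82 and 0.93.

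*KLF7*, a close relative of KLF6 known from neurons, was near the limit of detection. It was counted 2 and 0 times at 0 h, 11 and 10 times in the 96 h control, and 1 and 3 times in CTCF-depleted cells. The ratio of pooled counts was 10.9 between the 96 h control and 0 h, with a 95% counting interval of 2.67 to 96.1. Between CTCF-depleted cells and the 96 h control it was 0.195, with an interval of 0.0486 to 0.577. Without the filter on low counts edgeR gave an adjusted p of 0.00338 for the first difference and 0.0457 for the second, while DESeq2 gave 0.0454 for the first. The log2 fold change of the first was 6.44 without 0 h replicate 1 and 2.10 without 0 h replicate 2 (edgeR adjusted p = 0.0764), so its size and its call rest on 1 library.

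Among the members with a CtBP motif, *KLF3*, a repressor with known roles in B cell and erythroid development, had 1 count in each 0 h library. It was counted 574 and 619 times in the 96 h control libraries and 294 and 280 times in the CTCF-depleted libraries, or 50.7 and 57.3 against 27.2 and 25.8 CPM. The ratio of pooled counts between the 96 h control and 0 h was 621, and its counting interval of 171 to 5132 was wide because only 2 reads stood for the 0 h group. In CTCF-depleted cells *KLF3* stood 2.04-fold lower than in the control, with no overlap of the groups (log2 fold change −1.03, SE 0.09, edgeR adjusted p = 4.52e-14).

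*KLF12*, a repressor of *TFAP2A*, was the single member called lower with conversion. It stood at 128 and 134 CPM at 0 h, 75.5 and 79.3 CPM in the 96 h control, and 84.0 and 78.8 CPM in CTCF-depleted cells. The 0 h libraries were above all others, while the control and CTCF-depleted libraries overlapped. *KLF12* fell by 0.76 on the log2 scale with conversion (SE 0.06, edgeR adjusted p = 6.98e-16), and the log2 fold change upon CTCF depletion was 0.07 (SE 0.07, edgeR adjusted p = 0.425). The 2 members with a CtBP motif thus had opposite directions with conversion.

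Among the SIN3-binding members, *KLF10* (chr8:102648784-102655725, minus strand), an early response gene of TGF-β signaling, had the widest swing. It was counted 216 and 222 times at 0 h, 2308 and 2103 times in the 96 h control, and 997 and 1020 times in CTCF-depleted cells. In CPM these were 22.3 and 16.7, 204 and 195, and 92.3 and 94.0. *KLF10* rose 10.4-fold with conversion (log2 fold change 3.38, SE 0.08, edgeR adjusted p = 1.97e-41). In CTCF-depleted cells it stood 2.14-fold lower than in the control, the largest fall of a tested member (log2 fold change −1.10, SE 0.07, edgeR adjusted p = 5.19e-21), and remained 4.87-fold above 0 h there.

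*KLF13*, an activator of *CCL5* in T lymphocytes, was the member with the highest counts among those tested in the 96 h control. It stood at 149 and 143 CPM at 0 h, 263 and 283 CPM in the 96 h control, and 195 and 188 CPM in CTCF-depleted cells. It was called higher with conversion (log2 fold change 0.90, SE 0.05, edgeR adjusted p = 1.42e-23). Between CTCF-depleted cells and the 96 h control the groups did not overlap, and its log2 fold change of −0.51 (SE 0.05, edgeR adjusted p = 5.37e-13) passed the threshold on p but not the one on fold change.

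*KLF9*, a target of glucocorticoid and thyroid hormone receptors, was between 25.1 and 28.0 CPM at 0 h, 67.3 and 71.8 CPM in the 96 h control, and 53.6 and 62.3 CPM in CTCF-depleted cells. It rose with conversion (log2 fold change 1.40, SE 0.09, edgeR adjusted p = 1.86e-21). Upon CTCF depletion its log2 fold change was −0.26 (SE 0.08, edgeR adjusted p = 0.00592), below the threshold on fold change, and the adjusted p was 0.120 with DESeq2 and between 0.00145 and 0.309 when 1 library of the 2 groups was left out. *KLF11*, a regulator of insulin and TGF-β response genes, ranged from 34.4 to 46.9 CPM over the 6 libraries. Its log2 fold changes were −0.35 with conversion (SE 0.08, edgeR adjusted p = 1.58e-04) and 0.05 upon CTCF depletion (SE 0.08, edgeR adjusted p = 0.674), and neither was called.

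To ask what CTCF contributes to the KLF levels reached in the macrophage state, CTCF-depleted cells were compared with the 96 h control over the whole set. Of the 9 members tested, 1 was called higher (*KLF6*), 2 were called lower (*KLF3* and *KLF10*) and 6 were not called, where 5.41% of all genes tested were called higher and 7.03% lower, 12.4% in all. At an adjusted p below 0.01 with no threshold on fold change, the members were 2 higher (*KLF2* and *KLF6*) and 4 lower (*KLF3*, *KLF9*, *KLF10* and *KLF13*), where 12% of all genes tested were higher and 17.4% lower by the same rule. The groups did not overlap for 7 members, 3 higher and 4 lower, where they did not overlap for 67.9% of all genes tested (30.1% higher and 37.8% lower), so this count is near the background. The median log2 fold change was 0.05 over the members and −0.03 over all genes. Both called members that fell, *KLF3* and *KLF10*, were genes that rose with conversion, whereas *KLF6* rose in both comparisons. These comparisons share the 96 h control libraries.

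**Figure D2:**
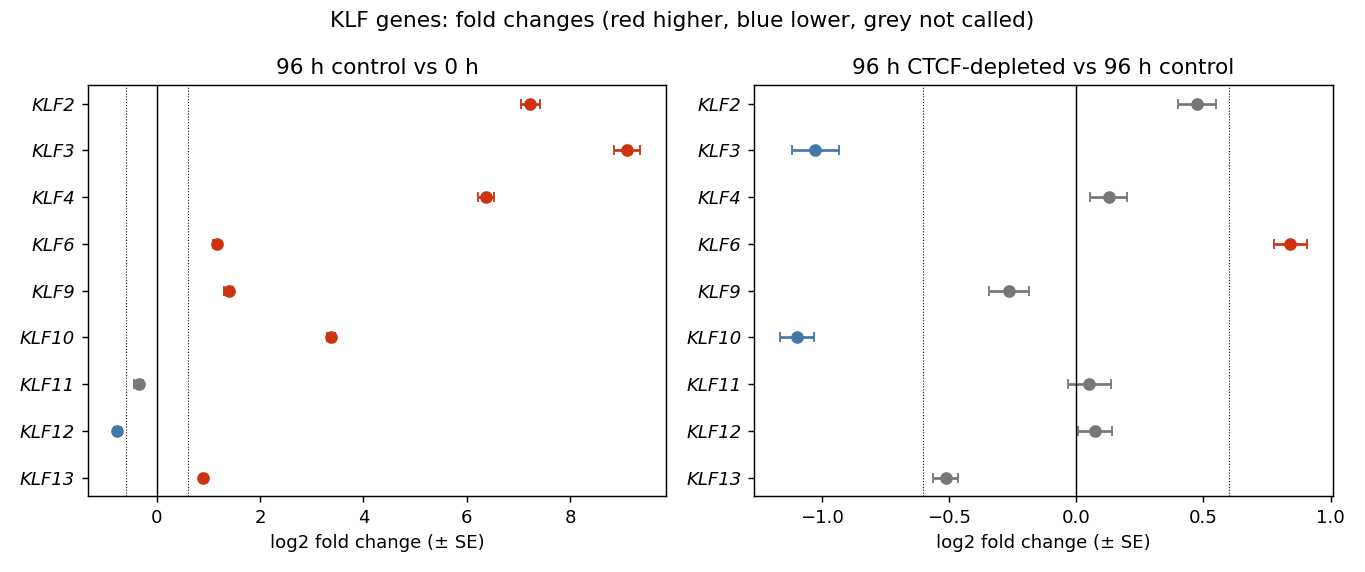
Log2 fold change (point) with its standard error (bar) for the 9 KLF genes tested, 96 h control against 0 h on the left and 96 h CTCF-depleted against 96 h control on the right, with separate axes. Dotted lines mark the threshold of 0.6 and colour marks called genes, with KLF6 at 0.84, KLF3 at −1.03 and KLF10 at −1.10 on the right.

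Set directly against 0 h, CTCF-depleted cells had 6 members called higher (*KLF2*, *KLF3*, *KLF4*, *KLF6*, *KLF9* and *KLF10*) and 1 lower (*KLF12*), while *KLF11* and *KLF13* were not called, against 27.2% and 25.2% of all genes, 52.5% in all. *KLF13* had a log2 fold change of 0.39 there (edgeR adjusted p = 1.30e-09), below the threshold on fold change, in place of 0.90 in the 96 h control.

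Levels of different genes were compared per kilobase of exon (CPM per kb, exon lengths from GENCODE 44), and the make-up of the pooled KLF transcripts shifted at both steps. The 10 members summed to 54.2 ± 2.02 CPM per kb at 0 h, 177 ± 0.95 in the 96 h control and 158 ± 6.25 in CTCF-depleted cells (SD, n = 2). At 0 h *KLF13*, *KLF12* and *KLF11* were the leading members, with 28.6%, 21.0% and 18.6% of the sum. In the 96 h control *KLF10* led with 29.4%, followed by *KLF13* with 16.3%, *KLF2* with 13.3% and *KLF4* with 12.3%. In CTCF-depleted cells *KLF2* led with 20.8%, followed by *KLF6* with 16.8%, *KLF10* with 15.4% and *KLF4* with 15.0%. *KLF10* and *KLF4* there differed by less than the spread of the replicates. The share of *KLF6* went from 8.34% to 16.8% and that of *KLF10* from 29.4% to 15.4% between the 2 groups at 96 h. The lengths are of all annotated exons of a gene, which the cells need not all use, so the order is approximate.

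**Figure D3:**
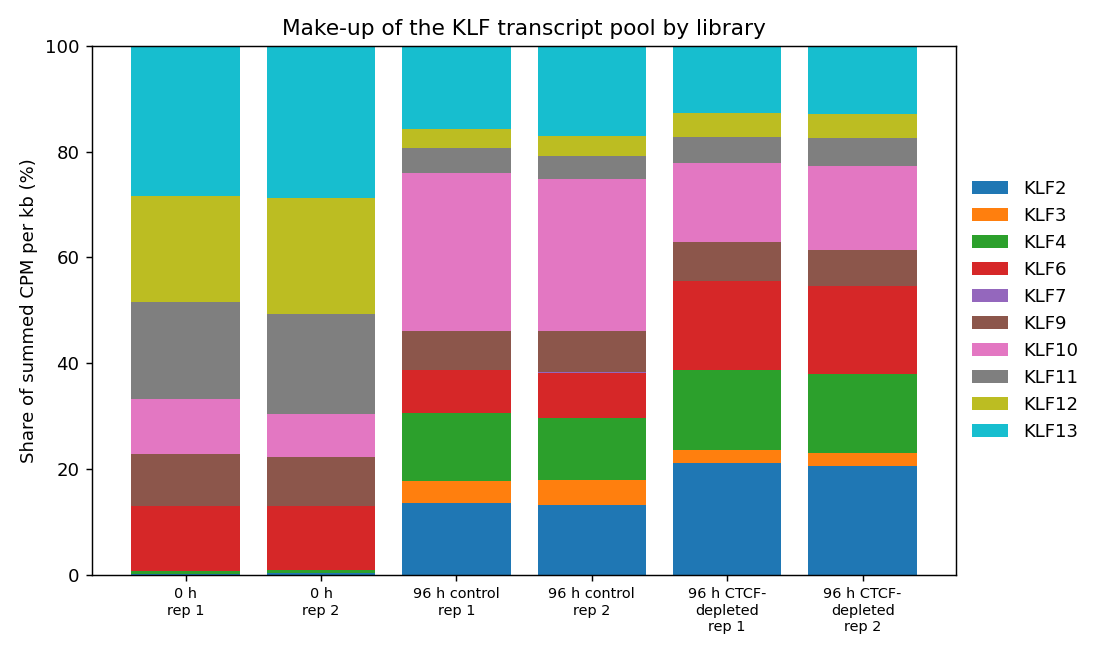
Share of each KLF gene in the summed CPM per kb of the 10 genes (percent, stacked to 100) in each of the 6 libraries. KLF13, KLF12 and KLF11 fill most of the 0 h bars, KLF10 leads in the 96 h control with a mean of 29.4%, and KLF2 leads in the CTCF-depleted bars with 20.8%.

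The other genes of the family and the related SP genes, whose products bind the same GC boxes, were set beside the members. Of the other KLF genes, 7 were in the table, 3 were tested (*KLF5*, *KLF8* and *KLF16*) and none was called by edgeR or DESeq2 in any comparison, while edgeR gave 2 of the 3 an unadjusted p below 0.05 with conversion and 0 upon CTCF depletion. Over all genes tested edgeR called 48.3% with conversion, 12.4% upon CTCF depletion and 52.5% between CTCF-depleted cells and 0 h. The 3 genes are too few to set against these shares, and *KLF5* and *KLF8* had at most 28 counts in a library. *KLF16*, a SIN3-binding member, stood at 56.0 ± 5.01, 38.6 ± 3.74 and 37.9 ± 0.855 CPM in the 3 groups, with a log2 fold change of −0.53 with conversion (edgeR adjusted p = 1.04e-07). *KLF5*, an activator of epithelial growth, stood at 1.08, 2.36 and 1.38 CPM, and *KLF8*, a CtBP-binding repressor, at 0.563, 0.999 and 1.52 CPM, with 0 and 15 counts in its 2 libraries at 0 h. Of 5 SP genes tested, 1 was called with conversion, *SP7*, where the share over all genes was 48.3%. This bone factor was counted 0 and 1 times at 0 h and 51 and 53 times in the 96 h control. The ratio was 108, with a counting interval of 19.0 to 4315. *SP7* passed the filter on low counts only through the 96 h libraries, so once tested it could only come out higher. It was also called higher between CTCF-depleted cells and 0 h, but not called upon CTCF depletion. *SP3*, which is broadly expressed, stood at 210.0 ± 1.72 CPM at 0 h, 278 ± 0.629 CPM in the 96 h control and 212 ± 4.36 CPM in CTCF-depleted cells, a log2 fold change of −0.39 upon depletion (edgeR adjusted p = 6.78e-10) that is below the threshold on fold change. *SP1*, *SP2* and *SP4* were not called in any comparison.

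Genes for the cofactors that KLF proteins recruit were taken in 3 lists, where 48.3% of all genes tested were called with conversion and 12.4% upon CTCF depletion. Of 7 CtBP corepressor genes tested, 3 fell with conversion, the demethylase *KDM1A* (log2 fold change −1.08), the methyltransferase *EHMT2* (−0.81) and its partner *WIZ* (−0.67), and none was called upon depletion (range −0.20 to 0.08). Of 16 SIN3 corepressor genes, 2 rose with conversion (*SAP30*, 1.43, and *ARID4A*, which went from 57.7 to 133 CPM), 2 fell (*HDAC2*, −1.01, and *BRMS1*, −0.66), and none was called upon depletion (range −0.54 to 0.39). Of 4 acetyltransferase genes, 3 rose with conversion (*KAT2B*, 1.02, *EP300*, 0.70, and *CREBBP*, 0.67) and none was called upon depletion (range −0.42 to 0.48). At the threshold on p alone, edgeR gave 1 of the 7, 7 of the 16 and 2 of the 4 genes an adjusted p below 0.01 upon depletion, and 2, 11 and 2 an unadjusted p below 0.05, and DESeq2 called 0 in each list. Over all genes tested 29.4% had an adjusted p below 0.01, and with so few genes the counts of 0 called are near the background.

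In the list of ERK5 pathway, MEF2 and FOXO genes, which induce *KLF2* and *KLF4* in other cells, 4 of 10 tested rose with conversion (*FOXO3*, *MAP3K2*, *MAP3K3* and *FOXO4*) and 2 fell (*FOXO1* and *MEF2C*). With conversion 25.4% of all genes tested were called higher and 22.9% lower, so with 10 genes these counts are near the background. *FOXO3* went from 51.3 ± 2.99 to 332 ± 5.67 CPM, and *MEF2C* from 1080.0 ± 12.9 to 516 ± 0.606 CPM. *FOXO4* stood at 10.9 and 13.0 CPM at 0 h, 28.3 and 26.2 CPM in the 96 h control and 46.4 ± 3.30 CPM (SD, n = 2) in CTCF-depleted cells, and was called higher upon depletion (log2 fold change 0.76, SE 0.09, edgeR adjusted p = 6.50e-10). It was the single call among the 10, near the background of 12.4%. Of the 10, 5 had an adjusted p below 0.01, where 29.4% of all genes tested did, and 8 an unadjusted p below 0.05. The share of all genes at an unadjusted p below 0.05 was not counted, here or for the other lists. Of 6 genes for ubiquitin ligases of KLF proteins, *SMURF1* rose with conversion (log2 fold change 0.62) and *FBXW7* fell (−0.95), to be read beside the same shares. None was called upon depletion by edgeR or by DESeq2. In edgeR 3 had an unadjusted p below 0.05 and 2 an adjusted p below 0.01, to be read beside the 29.4% of all genes. Among these 2 was *FBXW7* (log2 fold change 0.53, edgeR adjusted p = 4.43e-10), higher upon depletion but below the threshold on fold change.

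Of 11 genes described elsewhere as KLF targets 9 were tested, and all 9 rose with conversion, where 25.4% of all genes tested did. This count is in part set by the filter on low counts. *THBD*, *IL10* and *CD14* passed it only through the 96 h libraries, so once tested they could only come out higher. *CR2* and *LGALS3*, counted at most 2 times in a library, were left out by it. The list includes *CD14*, which is also a macrophage marker. Their median log2 fold change was 3.77, and 1.52 when *THBD* and *IL10*, which were at 0 in both 0 h libraries, were set to their lower bounds (a floor of 3 counts per library). The monocyte receptor *CD14* was counted 0 and 4 times at 0 h and 115 and 139 times in the 96 h control. Upon CTCF depletion 1 of the 9 rose, 2 fell and 6 were not called, where 12.4% of all genes tested were called. The integrin *ITGB7* rose from 51.5 ± 3.54 to 89.6 ± 0.721 CPM (log2 fold change 0.80, edgeR adjusted p = 3.00e-13). *SMAD7*, the TGF-β inhibitor, fell from 59.2 ± 2.59 to 34.3 ± 1.38 CPM (−0.79, edgeR adjusted p = 1.03e-11), and *CDKN1A*, the cell cycle inhibitor, from 320.4 ± 7.77 to 190 ± 3.95 CPM (−0.76, edgeR adjusted p = 6.69e-19).

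**Figure D4:**
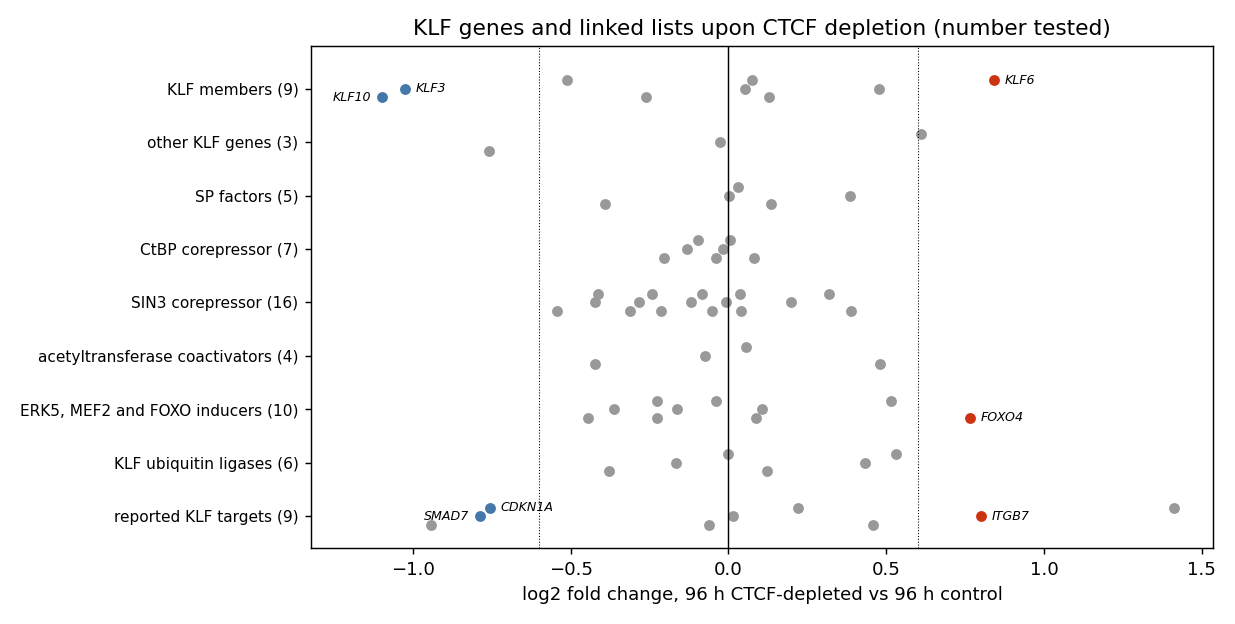
Log2 fold change of 96 h CTCF-depleted against 96 h control for each tested gene of the KLF set and of 8 lists linked to it, 1 point per gene and 1 row per list, with the number tested in parentheses. Coloured and named points are called genes, and dotted lines mark the threshold of 0.6. Outside the KLF row, only the row of ERK5, MEF2 and FOXO genes and the row of reported targets hold called genes.

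Around the KLF genes whose promoters the study targeted, few protein-coding neighbours were close. The GENCODE start of *RAD23B*, a DNA repair gene, lay 207345 bp from that of *KLF4*, and it was the single such gene within 250 kb. It stood at 297, 268 and 287 CPM in the 3 groups and was not called (log2 fold change upon depletion 0.10, edgeR adjusted p = 0.0888). No protein-coding gene started within 250 kb of *KLF6*.

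The genes whose pattern was most like those of *KLF6* and *KLF10* were taken by Euclidean distance over the 2 log2 fold changes (96 h control against 0 h, and 96 h CTCF-depleted against 96 h control), among 9857 genes with a mean of at least 10 CPM. For *KLF6* these were *DCUN1D3* (distance 0.07), *FOXO4* (0.08) and *KIAA1147* (0.13). For *KLF10* they were *ZFP36*, which encodes an mRNA decay factor (0.04), *CSGALNACT1*, an enzyme of chondroitin sulfate synthesis (0.06), and *NAB2*, a corepressor of EGR factors (0.11). Each distance rests on 2 differences between 3 groups.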

How the data were processed

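RNA-seq was done on 6 libraries, 2 for each of 3 groups. Per the methods of the study, total RNA was depleted of ribosomal RNA, prepared with a stranded kit and sequenced paired-end, and the authors aligned reads to hg38 with STAR 2.6.1d and counted them over exons with featureCounts 2.0.6. The strand setting and annotation release are not given in the sources used here. The values are raw counts per gene symbol as deposited by the authors, not normalized, with 9273470 to 12718780 counts per library.

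Counts were tested with edgeR 4.0.16 (R 4.3.3) in 1 quasi-likelihood fit over the 6 libraries with condition as the only term, the filter filterByExpr, TMM factors and p-values adjusted by Benjamini-Hochberg over all 14758 genes tested. This replaced the DESeq2 test of the study, which was run as an alternative (DESeq2 1.42.0). A gene was called at an adjusted p under 0.01 with a log2 fold change beyond 0.6 in either direction. Levels are CPM with TMM factors. With 2 libraries a group, the smallest exact two-sided permutation p for a single gene is 0.333, so tests rest on the spread shared across genes (common biological coefficient of variation 3.96%). The methods of the study call the 2 libraries of a group biological replicates. Same-numbered replicates did not deviate together (correlations −0.02, 0.01 and −0.03) and were not treated as pairs. Counting intervals are exact conditional 95% intervals on pooled counts. Promoters came from RefSeq, gene positions and exon lengths from GENCODE 44. The script was tested on simulated data.

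The members and the gene lists were chosen with earlier results of these data known, and the MEF2-type and TATAA motifs after the promoters had been read. Named were all members, tested KLF and SP relatives, called genes of the lists (at most 4 a list and comparison), neighbours of *KLF4* and *KLF6* within 250 kb, and the 3 genes nearest in pattern to the members with the largest rise and fall upon depletion. One gene of the target list is not reported here and was left out of its counts.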

Additional observations from a re-analysis of the deposited data

How the results depend on the processing

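Leaving out each library in turn gave 7 to 8 members higher and 1 lower for the 96 h control against 0 h, 1 higher and 2 lower for CTCF-depleted cells against the 96 h control, and 6 higher and 1 lower for CTCF-depleted cells against 0 h. The count of 8 arose without 0 h replicate 1 and without 96 h control replicate 2, where *KLF7* passed the filter and was called. The same members were called with the replicate number as a block (7 higher and 1 lower, 1 and 2, and 6 and 1) and with DESeq2. The thresholds moved the counts. With an adjusted p below 0.05 and no threshold on fold change, edgeR called 2 members lower with conversion (*KLF11* and *KLF12*), 2 higher (*KLF2* and *KLF6*) and 4 lower (*KLF3*, *KLF9*, *KLF10* and *KLF13*) upon CTCF depletion, and 7 higher, *KLF13* included, and 2 lower between CTCF-depleted cells and 0 h. With an absolute log2 fold change above 1, edgeR called 6 higher (*KLF13* was lost) and 0 lower with conversion, 0 higher upon CTCF depletion and 0 lower between CTCF-depleted cells and 0 h. With at least 10 counts in every library, *KLF2* and *KLF3* were no longer tested, which left 5 members higher with conversion, 1 lower upon CTCF depletion (*KLF10*) and 4 higher between CTCF-depleted cells and 0 h. Over all genes, these thresholds gave 2375 higher and 3330 lower upon CTCF depletion for the first and 409 and 436 for the second, against 798 and 1038. Of 264 refitted log2 fold changes, 0 changed sign. For *KLF7* and for the 0 h levels of *KLF2* and *KLF3*, depth limits the precision to that of a few reads.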
